A study of Mus musculus with 49 samples.

Results

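Immediate early genes are transcribed within minutes of a growth signal, before any new protein is made, and 10 genes of this class are described here across mouse livers and liver tumors that carry the MET oncogene. The members, Egr1, Fos, Fosb, Fosl1, Jun, Junb, Ier2, Ier3, Klf6 and Myc, were chosen by gene symbol from the 21517 named genes of the array, and each was read at its brightest probe set over all 49 samples. Klf6 and Ier2 had 2 probe sets each and every other member had 1. The 49 arrays, all of FVB-strain liver, fell into 6 groups. At 7 weeks of age there were 7 livers labelled LAP-tTA, and at 6 weeks 7 livers labelled TRE-met (of these, mouse 1 has 14 weeks in its age field and 6 weeks in its title). At 14 weeks there were 7 livers labelled FVB-WT, and from 7 mice labelled LAP-tTA-Tre-c-Met came 7 pieces of liver labelled dis-Liv, 7 labelled ad-Liv and 14 tumors labelled Tum, 2 from each mouse. By the study's methods, MET mice carried LAP-tTa, a transactivator driven by the liver-specific LAP promoter, together with Tre-Met, a human MET gene under Tet-operator control, and the LAP-tTA controls carried only the transactivator, at 2 copies. The label of the TRE-met livers names only the Tre-c-Met transgene, and the methods describe the control strain as LAP-tTA, whereas the 14-week control livers are labelled wild type. dis and ad are read here as distant from and adjacent to the tumors.

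MET, the receptor for hepatocyte growth factor, signals through RAS, the kinases RAF and MEK, and ERK. ERK activates ternary complex factors that act with SRF on immediate early promoters, and the products of those genes are themselves transcription factors or short-lived regulators. Fos, Fosb and Fosl1 encode proteins that pair with those of Jun and Junb to form AP-1. Egr1 encodes a zinc finger factor, Klf6 a Krüppel-like factor, Ier3 a regulator of cell survival and ERK signalling, Ier2 a nuclear protein, and Myc a factor that acts with MAX on genes of ribosome synthesis and growth. In liver the class is known for its response to partial hepatectomy, to acute inflammation and to handling of the tissue.

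The promoters of 5 members for which RefSeq (GRCm38.p6) gave a sequence are shown because their genes carry the results below: Jun, Klf6 and Ier3 stood apart in tumors, and Fos and Junb differed between the age sets. Each run is the 150 bases before the annotated start on the gene's strand, with matches to any of 6 motifs, searched on both strands, in capitals: TGACATCA, the AP-1-like site known from the Jun promoter, TGACGTCA (the full cAMP response element), TGACG (its first bases, which also lie inside TGACGTCA), TGANTCA (the AP-1 site), TATAAA and the CArG box of SRF. The intervals are chr4:95052223-95052372 on the minus strand for Jun, chr13:5861339-5861488 for Klf6, chr12:85473740-85473889 for Fos, chr8:84978749-84978898 on the minus strand for Junb and chr17:35821563-35821712 for Ier3.
Jun: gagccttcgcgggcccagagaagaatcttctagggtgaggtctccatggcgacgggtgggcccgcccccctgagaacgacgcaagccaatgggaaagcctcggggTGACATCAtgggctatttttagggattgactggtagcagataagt
Klf6: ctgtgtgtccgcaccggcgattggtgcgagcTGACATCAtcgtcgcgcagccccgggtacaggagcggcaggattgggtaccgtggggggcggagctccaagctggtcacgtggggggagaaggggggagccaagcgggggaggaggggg
Fos: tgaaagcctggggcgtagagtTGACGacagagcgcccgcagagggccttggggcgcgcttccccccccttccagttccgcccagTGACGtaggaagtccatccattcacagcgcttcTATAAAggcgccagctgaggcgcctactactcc
Junb: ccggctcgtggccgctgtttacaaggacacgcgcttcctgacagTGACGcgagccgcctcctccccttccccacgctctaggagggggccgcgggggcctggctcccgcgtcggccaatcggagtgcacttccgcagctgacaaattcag
Ier3: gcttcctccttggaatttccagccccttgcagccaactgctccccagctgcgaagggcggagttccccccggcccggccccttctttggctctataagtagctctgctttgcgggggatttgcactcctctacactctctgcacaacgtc
Counted back from the start, with -1 as the last base before it, TGACATCA began at -45 in Jun and at -119 in Klf6. It occurred in the same window of 2.41% of 27025 promoters. TGACG began at -129 and at -66 in Fos and at -106 in Junb, and 13.5% of promoters held it. TATAAA began at -33 in Fos, and 8.08% of promoters held it. TGACGTCA (in 1.44% of promoters), TGANTCA (4.27%) and the CArG box (0.884%) matched none of the 5 windows, and the Ier3 window held none of the 6 motifs. Bases farther upstream than 150 were not searched, so a missing match does not show that a gene lacks the site.

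Values are log2 intensities after robust multi-array averaging, on a scale where each array has a mean intensity of 1, so that 0 is the mean of an array. The median probe set of an array lay between -3.42 and -3.20. Fosb and Fosl1 were dim, with only 33.9% and 38.2% of probe sets below them in mean signal, whereas the other members lay above 68.8% to 94.1% of probe sets. Levels are compared between samples, never between genes. The mean over 7 measured hepatocyte markers was 4.89 to 5.35 in the 35 liver samples and 1.13 to 4.64 in the 14 tumors. Tumor b of mouse 1 stood apart from the other 13, with the lowest hepatocyte mean (1.13 against 2.85 to 4.64), the highest stellate cell and fibroblast mean (3.05 against -0.40 to 1.67) and the highest neutrophil mean (-1.33 against -3.63 to -2.92), so results on tumors are also given without it. In whole tissue, fewer cells of a type and less RNA per cell cannot be told apart.

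**Figure D1:**
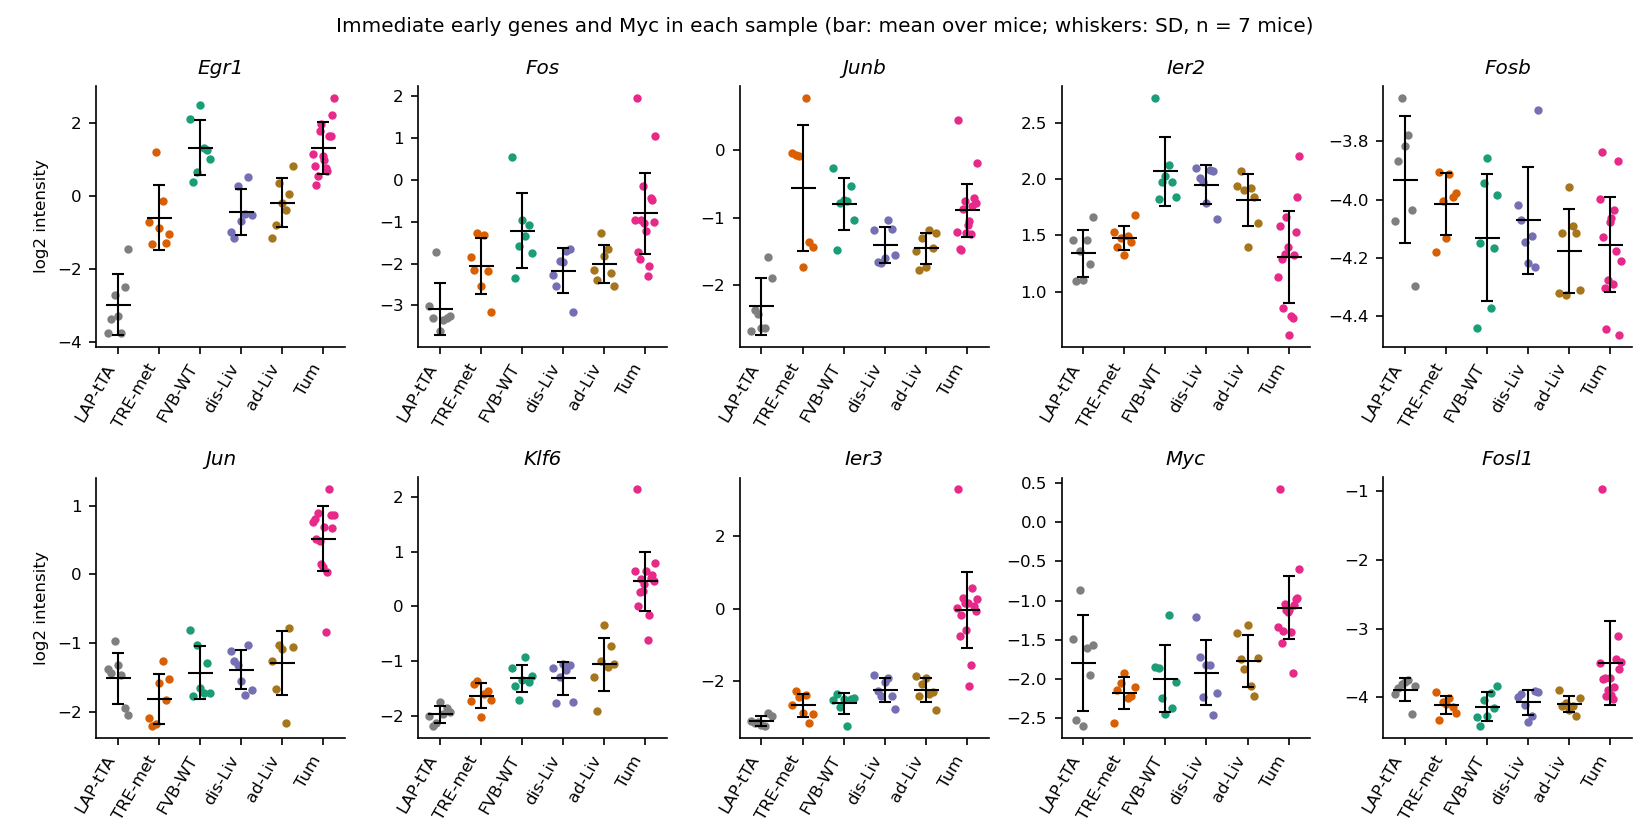
Log2 intensity (vertical axes) of the 10 members in every sample of the 6 groups (horizontal axes). Points are samples, bars are means and whiskers SD over 7 mice, with both tumors of a mouse averaged for the bar. Egr1 is lowest in LAP-tTA livers (-3.77 to -1.44), and the tumors sit at the top for Jun, Klf6 and Ier3.

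The first comparison asked how these genes differed between MET and control liver in the younger set. Its groups also differed in age (6 and 7 weeks) and in the transgenes their labels name, which cannot be told apart from MET. Egr1, Junb and Fos were all higher in the TRE-met group. Egr1 was between -3.77 and -1.44 (median -3.30) in the 7 LAP-tTA livers. In the 7 TRE-met livers it was between -1.32 and 1.21 (median -0.87). Every TRE-met liver was above every LAP-tTA liver, and the difference was 2.39 (SE 0.37, 5.24-fold, adjusted p = 0.000245). Junb, an AP-1 subunit that restrains Jun, was between -2.67 and -1.58 (median -2.42) in LAP-tTA and between -1.72 and 0.77 (median -0.08) in TRE-met livers. The groups overlapped through TRE-met mouse 4 at -1.72 and LAP-tTA mouse 6 at -1.58, and the difference was 1.75 (SE 0.31, 3.36-fold, adjusted p = 0.00111).

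Fos was between -3.62 and -1.73 (median -3.29) in LAP-tTA livers and between -3.17 and -1.27 (median -2.15) in TRE-met livers. The overlap came from LAP-tTA mouse 3, which at -1.73 lay far above the other 6 (-3.62 to -3.02). The difference of 1.01 (SE 0.28, 2.02-fold) had an adjusted p of 0.0308. Ier3 was 0.43 higher (1.35-fold, adjusted p = 0.0324) and Klf6 0.35 higher (1.27-fold, adjusted p = 0.0340), both with overlapping groups. In all 5 of the 10 members were higher and 0 lower, where 6.86% of 43681 probe sets were called in either direction. That share includes dim probe sets, which were called less often. With those below the median signal left out, 3298 were called, beside 2998 of all. The median difference of the members was 0.24 and that of all probe sets 0.01. Jun (-0.30, 95% interval -0.64 to 0.04, adjusted p = 0.359), Myc (-0.38, interval -0.80 to 0.04, adjusted p = 0.337), Ier2, Fosb and Fosl1 did not pass the test.

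The 3 smaller calls were fragile. Fos did not pass without TRE-met mouse 1, 3 or 5 or LAP-tTA mouse 1, 2, 4, 5, 6 or 7 (adjusted p = 0.0523 to 0.0727). Ier3 did not pass without TRE-met mouse 1, 2, 3 or 5 or LAP-tTA mouse 1, 2, 3, 4 or 5 (adjusted p = 0.0560 to 0.0756). Klf6 did not pass without TRE-met mouse 2, 3, 5 or 6 or LAP-tTA mouse 1, 2, 3 or 5 (adjusted p = 0.0551 to 0.0791), nor at its second probe set (difference 0.10, adjusted p = 0.744). With all 6 groups in 1 fit, Fos (adjusted p = 0.0836), Ier3 (0.408) and Klf6 (0.314) did not pass, and Klf6 did not pass with sample medians set equal (0.0601). Egr1 and Junb passed in each of the 14 fits that left out 1 mouse.

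Among 36 further immediate early genes, 5 were higher in TRE-met livers, 1 was lower and 30 did not pass. Btg2, an antiproliferative gene, was 1.70 higher (adjusted p = 1.69e-06), the growth arrest gene Gadd45a 1.22 higher (adjusted p = 0.000301), the small Maf factor Maff 0.67 higher (adjusted p = 0.00180) and Cebpb, a liver factor of the acute phase, 0.81 higher (adjusted p = 0.00262). Of 14 ERK feedback genes 0 were called. This list, whose genes report ERK activity in many cell types, includes those of dual-specificity phosphatases and of Sprouty and Spred inhibitors. With 6.86% of all probe sets called, 0 of 14 does not show that ERK was inactive. Of 18 measured regulators of immediate early transcription only Srf was called, 0.31 higher (adjusted p = 0.0221). Of 14 measured Myc partners and antagonists 4 were higher, among them Mlx by 0.52 (adjusted p = 5.21e-05) and Mycn by 0.73 (adjusted p = 0.000383), and of 17 measured Myc target genes Ldha, Cad and Srm were higher.

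Some genes of the marker lists were called between the same groups, in both directions. Of the 10 acute phase genes 4 were higher in TRE-met livers, and the list mean was 1.87 to 5.20 against 1.38 to 3.02 in LAP-tTA livers. Of 7 measured neutrophil genes 2 were higher, with list means of -3.54 to -1.18 against -3.65 to -3.24. Of 6 measured heat shock genes 2 were lower, with list means of 1.64 to 2.48 against 2.09 to 2.70. Their part in the differences was not tested.

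At 14 weeks the same question gave the opposite sign for Egr1 and Junb. Egr1 was between 0.40 and 2.51 (median 1.26) in the FVB-WT livers. It was between -1.14 and 0.53 (median -0.53) in dis-Liv and between -1.16 and 0.82 (median -0.18) in ad-Liv. Only dis-Liv mouse 6 (0.53) and ad-Liv mouse 7 (0.82) reached into the range of the controls. The differences were -1.76 (SE 0.31, adjusted p = 0.00211) for dis-Liv and -1.51 (SE 0.32, adjusted p = 0.00798) for ad-Liv, that is 3.39-fold and 2.85-fold lower. Junb was between -1.48 and -0.27 (median -0.75) in FVB-WT livers, between -1.66 and -1.03 in dis-Liv and between -1.77 and -1.19 in ad-Liv. It was lower by 0.61 in dis-Liv (SE 0.15, adjusted p = 0.0260) and by 0.66 in ad-Liv (SE 0.15, adjusted p = 0.0118). The dis-Liv call for Junb did not pass without dis-Liv mouse 3 (adjusted p = 0.0615) or 4 (0.0582) or FVB-WT mouse 4 (0.0513) or 6 (0.0596). With all 6 groups in 1 fit neither Junb call passed (adjusted p = 0.161 for dis-Liv and 0.0886 for ad-Liv).

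Both comparisons share the 7 FVB-WT livers, so they are not independent. In each, 2 of the 10 members were lower and 0 higher, where 5.06% of probe sets were called for dis-Liv and 7% for ad-Liv. Fos was -0.96 (interval -1.65 to -0.27, adjusted p = 0.109) in dis-Liv and -0.80 (interval -1.47 to -0.13, adjusted p = 0.144) in ad-Liv, with FVB-WT mouse 1 at 0.53 above the other controls (-2.33 to -0.96). Without FVB-WT mouse 2 the dis-Liv difference in Fos passed (adjusted p = 0.0360). Jun, Klf6, Myc and Ier2 did not pass in either. Ier3 was 0.38 higher in dis-Liv (adjusted p = 0.167) and 0.36 higher in ad-Liv (adjusted p = 0.152, or 0.0423 without ad-Liv mouse 7).

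Of the 36 further immediate early genes, 2 were higher and 3 lower in dis-Liv, and 6 higher and 2 lower in ad-Liv. Zfp36, which encodes an mRNA decay factor, was lower in both (-0.62, adjusted p = 0.00234, and -0.69, adjusted p = 0.000385), and the matricellular gene Ccn2 was higher in both (0.93, adjusted p = 0.0156, and 1.78, adjusted p = 0.000579). Of 14 ERK feedback genes 1 was lower in dis-Liv and 2 were higher in ad-Liv. Of the 7 stellate cell and fibroblast genes 4 were lower in dis-Liv and 1 in ad-Liv, with list means of 0.02 to 0.50 and -0.05 to 1.01 against 0.43 to 0.87 in FVB-WT livers. Of 7 measured neutrophil genes 2, S100a8 and S100a9, were higher in both and 5 did not pass in either. The neutrophil list means were -3.13 to -2.40 in dis-Liv and -3.17 to -2.72 in ad-Liv, against -3.39 to -3.17 in FVB-WT livers. Of the 10 acute phase genes 2 were higher in dis-Liv, and 5 were higher and 1 lower in ad-Liv, with list means of 1.41 to 3.79 and 1.38 to 3.81 against 1.78 to 2.11 in FVB-WT livers. Of the 6 heat shock genes 1 was higher in dis-Liv, and 2 were higher and 1 lower in ad-Liv, with list means of 1.22 to 1.75 and 1.30 to 1.74 against 1.12 to 1.66. The part of these lists in the results was not tested. Between ad-Liv and dis-Liv limma called 0 of the 10 members and 0% of probe sets, in a fit that did not pair the pieces of a mouse. With the mouse as a block 0 probe sets were called as well. In the unpaired fit 4252 of 43681 probe sets had an unadjusted p under 0.05, none of them a member. With all 6 groups in 1 fit 3 probe sets were called. The methods' test at an unadjusted p of 0.01, also unpaired, called 1199 probe sets, 971 of them higher in ad-Liv, and 0 members. A lack of calls does not show that the pieces were equal. The largest member difference was 0.26 for Klf6 (interval -0.13 to 0.65).

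**Figure D2:**
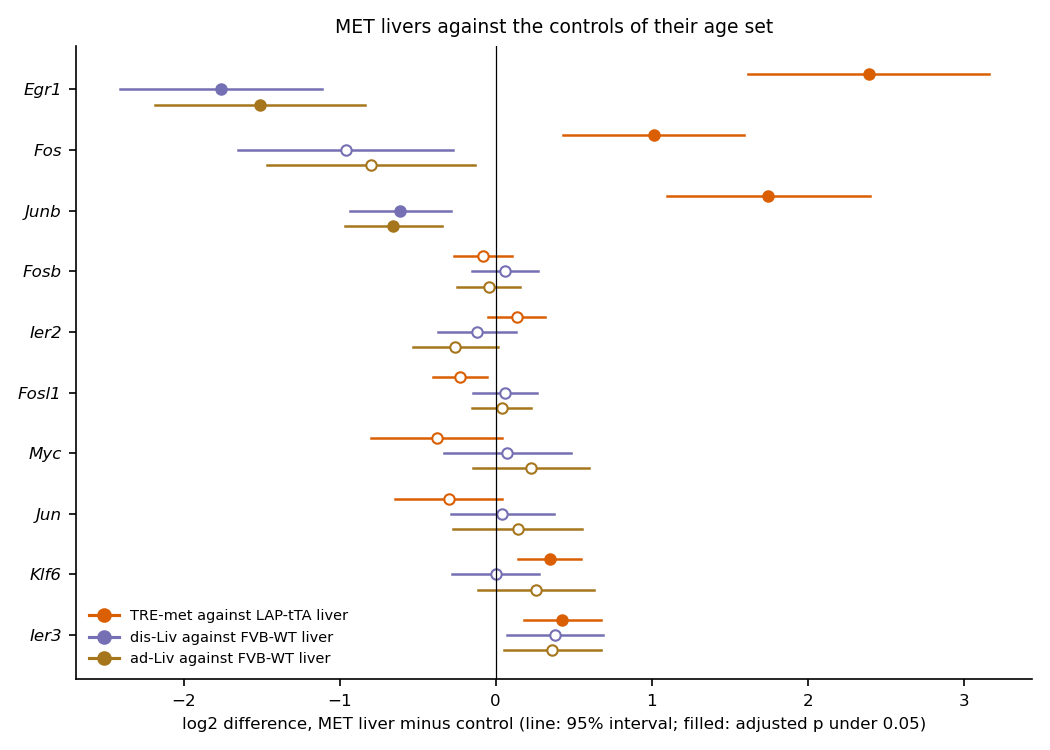
Log2 difference between MET liver and the controls of its age set (horizontal axis) for each member (vertical axis), with 95% intervals; filled points passed an adjusted p of 0.05. Egr1 was 2.39 above its controls in the younger set and 1.76 (dis-Liv) and 1.51 (ad-Liv) below them at 14 weeks.

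A test of the difference between the age sets (TRE-met minus LAP-tTA against dis-Liv minus FVB-WT, all 28 livers in 1 fit) called 3 members, with 7.73% of probe sets called. The difference of MET from control livers was more positive in the younger set by 4.15 for Egr1 (SE 0.53, adjusted p = 1.15e-06), by 2.36 for Junb (SE 0.38, adjusted p = 6.42e-05) and by 1.98 for Fos (SE 0.47, adjusted p = 0.00559). These 3 calls held in each of the 28 fits that left out 1 mouse. Age, MET stage and the label of the controls differed together between the sets and cannot be told apart.

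The control groups themselves differed, for Egr1 and Fos by more than MET livers differed from their controls. Egr1 was 4.31 higher in FVB-WT than in LAP-tTA livers (SE 0.35, 19.8-fold, adjusted p = 9.88e-08), with no overlap. Fos was 1.87 higher (SE 0.34, 3.66-fold, adjusted p = 0.00113), and Junb 1.51 higher (SE 0.18, 2.86-fold, adjusted p = 1.38e-05). Ier2 (0.73), Klf6 (0.66) and Ier3 (0.49) were higher too, which made 6 of 10 members against 9.43% of probe sets, and the Ier3 call was lost with all 6 groups in 1 fit (adjusted p = 0.251) and the Ier2 call at its dim second probe set (0.17, adjusted p = 0.239). The control groups did not overlap for Egr1, Junb, Ier2 and Klf6, but overlap was not counted over all probe sets, which leaves no background for this. Between the MET livers of both sets (dis-Liv against TRE-met) 1 of the 10 members was called, where 14.3% of probe sets were called. It was Ier2, 0.47 higher in dis-Liv (SE 0.08, adjusted p = 0.000806). At the dim second probe set of Ier2 the difference was -0.20 (adjusted p = 0.114), which left 0 members called. Egr1 differed there by 0.16 (interval -0.56 to 0.87, adjusted p = 0.795), and Fos by -0.11 (interval -0.67 to 0.46, adjusted p = 0.830). Junb was -0.84 (interval -1.49 to -0.20, adjusted p = 0.0728), and it passed without TRE-met mouse 4 (0.0235), 6 (0.0449) or 7 (0.0387). Jun was 0.42 higher in dis-Liv (interval 0.11 to 0.74, adjusted p = 0.0686) and Ier3 0.44 higher (interval 0.12 to 0.76, adjusted p = 0.0630). Klf6 was 0.31 higher (interval 0.04 to 0.58, adjusted p = 0.113). With sample medians set equal, Jun (adjusted p = 0.0407) and Ier3 (0.0372) passed. Myc was 0.26 higher in dis-Liv (interval -0.06 to 0.58, adjusted p = 0.261). Of 17 measured Myc target genes 3 were higher and 8 lower there, with a median difference of -0.24 beside -0.06 for all probe sets.

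The order of group means thus ran, for Egr1, from LAP-tTA (-2.98 ± 0.83, SD, n = 7) through TRE-met (-0.59 ± 0.89), dis-Liv (-0.43 ± 0.62) and ad-Liv (-0.18 ± 0.67) to Tum (1.32 ± 0.71) and FVB-WT (1.33 ± 0.76). Only the steps from LAP-tTA to TRE-met and from ad-Liv to Tum were over 1 pooled SD. For Fos the order was LAP-tTA (-3.08 ± 0.62), dis-Liv (-2.17 ± 0.54), TRE-met (-2.07 ± 0.67), ad-Liv (-2.01 ± 0.45), FVB-WT (-1.21 ± 0.90) and Tum (-0.80 ± 0.96), with neighbours among dis-Liv, TRE-met and ad-Liv and the pair FVB-WT and Tum within 1 SD. For Junb it was LAP-tTA (-2.31 ± 0.42), ad-Liv (-1.45 ± 0.23), dis-Liv (-1.41 ± 0.27), Tum (-0.89 ± 0.39), FVB-WT (-0.80 ± 0.38) and TRE-met (-0.56 ± 0.94), and Tum, FVB-WT and TRE-met followed each other within 1 SD.

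Heat shock genes moved between the controls in the other direction. Of the 6 measured, 5 were lower in FVB-WT than in LAP-tTA livers, with list means of 1.12 to 1.66 against 2.09 to 2.70, and Hspa1b, an inducible heat shock protein, was 0.88 to 1.92 against 2.40 to 3.42. Of 7 Kupffer cell genes 6 were higher in FVB-WT livers, with list means of 0.28 to 0.91 against -0.24 to 0.24. Neither list's part in the control difference was tested. Of the 36 further immediate early genes 9 were higher and 1 lower in FVB-WT, led by Btg2 (1.66, adjusted p = 3.72e-06), Zfp36 (0.94, adjusted p = 1.44e-05), Maff (0.78, adjusted p = 0.000161) and Gadd45a (1.27, adjusted p = 0.00111).

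Jun, Klf6, Ier3 and Myc were higher in tumors than in each of the 3 groups of 14-week liver, and Ier2 was lower. Jun was between -0.84 and 1.24 (median 0.69) in the 14 tumors. It was between -1.76 and -0.81 in FVB-WT, between -1.76 and -1.02 in dis-Liv and between -2.16 and -0.77 in ad-Liv. Only tumor 5a, at -0.84, fell within the range of any liver. The differences, with both tumors of a mouse averaged, were 1.95 against FVB-WT (SE 0.20, 3.86-fold, adjusted p = 2.07e-06), 1.90 against dis-Liv (3.74-fold, adjusted p = 1.63e-06) and 1.81 against ad-Liv (3.50-fold, adjusted p = 3.01e-05).

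Klf6 was between -0.62 and 2.13 (median 0.48) in tumors, against -1.71 to -0.92, -1.76 to -1.05 and -1.90 to -0.33 in FVB-WT, dis-Liv and ad-Liv. It was higher by 1.77 (SE 0.20, 3.42-fold, adjusted p = 3.93e-06), 1.77 (adjusted p = 1.01e-05) and 1.52 (adjusted p = 0.000267). Ier3 had the largest differences of the members, 2.59 against FVB-WT (SE 0.36, 6.02-fold, adjusted p = 3.87e-05), 2.21 against dis-Liv (4.63-fold, adjusted p = 0.000267) and 2.23 against ad-Liv (4.68-fold, adjusted p = 0.000336). Its tumors ran from -2.14 to 3.31 (median 0.06), whereas the highest of the 21 liver samples at 14 weeks was at -1.84. Myc, the factor that drives growth genes with its partner Max, was between -1.93 and 0.42 (median -1.12) in tumors and between -2.46 and -1.18 in the same 21 liver samples. It was 0.91 higher than in FVB-WT (SE 0.20, 1.88-fold, adjusted p = 0.00217), 0.83 higher than in dis-Liv (1.78-fold, adjusted p = 0.00418) and 0.68 higher than in ad-Liv (1.60-fold, adjusted p = 0.00802).

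Egr1, Fos and Junb passed against dis-Liv and ad-Liv and not against FVB-WT. In tumors Egr1 was between 0.31 and 2.70 (median 1.14), which was 1.75 above dis-Liv (3.36-fold, adjusted p = 0.000542) and 1.5 above ad-Liv (2.83-fold, adjusted p = 0.00268), but -0.01 from FVB-WT (interval -0.73 to 0.71, adjusted p = 0.987). Fos was 1.37 above dis-Liv (adjusted p = 0.0103) and 1.21 above ad-Liv (adjusted p = 0.0156), and 0.41 above FVB-WT (interval -0.50 to 1.32, adjusted p = 0.512). The ad-Liv call for Fos did not pass without mouse 6 (adjusted p = 0.0567) or 7 (0.0565). Junb was 0.52 above dis-Liv (adjusted p = 0.0249), a call lost without mouse 3 (0.0877) or 7 (0.0942). It was 0.56 above ad-Liv (adjusted p = 0.0115) and -0.09 from FVB-WT (interval -0.48 to 0.29, adjusted p = 0.741). With all 6 groups in 1 fit neither Junb call passed (adjusted p = 0.123 and 0.0724).

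Ier2 went the other way. It was between 0.62 and 2.20 (median 1.33) in tumors and between 1.82 and 2.72 (median 1.98) in FVB-WT livers, and it fell by 0.76 against FVB-WT (SE 0.17, adjusted p = 0.00295), by 0.64 against dis-Liv (adjusted p = 0.00450) and by 0.50 against ad-Liv (adjusted p = 0.0230). The last call was lost without mouse 1 (0.0564), 2 (0.0815), 5 (0.0668) or 6 (0.0520), and with sample medians set equal (0.0714). Its second probe set is dim (mean -4.14, with 32.6% of probe sets below it) and gave a difference of -0.16 against FVB-WT (adjusted p = 0.143), and differences of the opposite sign, 0.16 against dis-Liv (adjusted p = 0.108) and 0.13 against ad-Liv (adjusted p = 0.388). Fosl1, dim in all groups, was 0.64 higher than in FVB-WT (adjusted p = 0.0338) and 0.60 higher than in ad-Liv (adjusted p = 0.0348). Against dis-Liv it was 0.57 higher (adjusted p = 0.0547, or 0.0248 with the mouse as a block). The FVB-WT call was lost without FVB-WT mouse 1, 2, 4 or 6 or tumor mouse 6 or 7 (adjusted p = 0.0501 to 0.0668), and the ad-Liv call without mouse 2, 6 or 7 (0.0591 to 0.108). With each tumor as a sample neither passed (0.0963 and 0.0774). Fosb, at -4.46 to -3.83 in tumors, passed in no comparison.

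In all, 5 members were higher and 1 lower than in FVB-WT, where 29.2% of probe sets were called in either direction. Against dis-Liv 7 were higher and 1 lower, with 27% of probe sets called, and against ad-Liv 8 were higher and 1 lower, with 36.2% called. These shares include dim probe sets, which were called less often. With those below the median signal left out, 10297, 9876 and 10917 were called against FVB-WT, dis-Liv and ad-Liv. Of all 43681 probe sets, 12752, 11786 and 15827 were called. The median difference of the members was 0.52, 1.10 and 0.94, and that of all probe sets -0.05, -0.05 and -0.10. These comparisons share the tumors and are not independent. The mouse means of tumors and livers did not overlap for Jun, Klf6 and Ier3 against FVB-WT, for Jun and Klf6 against dis-Liv and for Jun and Ier3 against ad-Liv. The share of all probe sets without overlap was not counted, so nothing particular to the members is read from this.

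**Figure D3:**
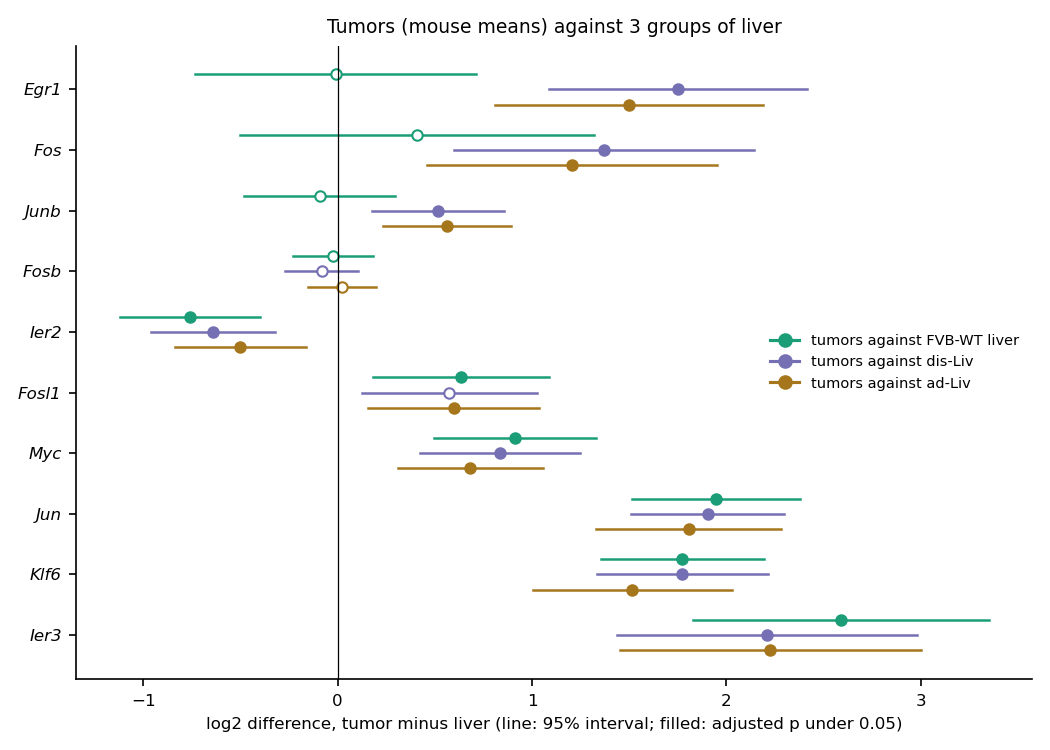
Log2 difference between tumors (mean of both tumors of a mouse, 7 mice) and FVB-WT, dis-Liv and ad-Liv (horizontal axis) for each member (vertical axis), with 95% intervals; filled points passed an adjusted p of 0.05. Jun, Klf6, Ier3 and Myc are filled against all 3 livers, whereas Egr1 is at -0.01 against FVB-WT and at 1.75 against dis-Liv.

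Further genes of the pathway were called in tumors in both directions. Of the 36 other immediate early genes 14 were higher and 6 lower than in FVB-WT. Maff (2.39, adjusted p = 6.49e-10), Mcl1, an antiapoptotic gene (1.06, adjusted p = 6.02e-08), the stress factor Atf3 (2.53, adjusted p = 1.47e-07) and Gadd45b (1.69, adjusted p = 1.33e-06) were higher. Of the 14 ERK feedback genes 6 were higher and 1 lower, among them the ERK phosphatase Dusp6 (1.47, adjusted p = 4.61e-05), Dusp5 (1.74, adjusted p = 1.34e-06), Ier5 (0.89, adjusted p = 4.75e-05, which is also in the list of 36) and Spred1 (1.18, adjusted p = 0.000361). Against ad-Liv 7 of these 14 were higher and 1 lower. Of 18 measured regulators 5 were higher and 3 lower than in FVB-WT, led by the kinase genes Mapk3 (ERK1, 0.96, adjusted p = 1.21e-06), Rps6ka1 (0.70, adjusted p = 2.3e-05) and Map2k1 (0.41, adjusted p = 0.000246), and by Crem (-0.57, adjusted p = 0.000429). The medians of the 3 lists were 0.11, 0.43 and 0.04.

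Of 14 measured partners and antagonists of Myc, 5 were higher and 3 lower in tumors than in FVB-WT livers. Max was 0.80 higher (adjusted p = 0.000151), the Myc paralog Mycn 1.60 higher (adjusted p = 0.000190), Mycl 0.62 higher (adjusted p = 0.00352), and Mlxipl, the carbohydrate-responsive factor ChREBP, lower (-0.69, adjusted p = 0.00275). Of 17 measured Myc target genes 6 were higher and 1 lower, a share of 41.2% beside 29.2% of all probe sets. That 29.2% includes dim probe sets, which were called less often. With probe sets below the median signal left out, 10297 were called, beside 12752 of all 43681. The share of Myc target genes is therefore not read as high. The nucleolar gene Ncl was 0.62 higher (adjusted p = 0.000161), the lactate dehydrogenase gene Ldha 0.46 higher (adjusted p = 0.00115), Npm1 0.34 higher (adjusted p = 0.0109), and Rrp9, a ribosomal RNA processing gene, lower (-0.33, adjusted p = 0.00227).

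Cell type markers and heat shock genes moved with the tumors as well. All 6 measured heat shock genes were higher than in FVB-WT, with list means of 1.52 to 3.38 against 1.12 to 1.66. Of 7 hepatocyte genes 4 were lower, of 7 Kupffer cell genes 6 were lower (list means -1.61 to 0.45 against 0.28 to 0.91), and of 7 stellate cell and fibroblast genes 3 were higher, led by Reln (2.39, adjusted p = 2.47e-08), and 2 lower (list means -0.40 to 3.05 against 0.43 to 0.87). Of 6 sinusoidal endothelium genes 4 were lower and 1 higher (list means -0.82 to 0.63 against 0.68 to 1.04), and of 10 acute phase genes 3 were higher and 4 lower (list means 1.39 to 2.76 against 1.78 to 2.11). Their part in the members' differences was not tested.

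The difference between both tumors of a mouse varied among the members. The median difference within a mouse was 0.19 for Egr1, 0.24 for Fos, 0.15 for Myc, 0.13 for Junb, 0.26 for Klf6, 0.17 for Fosl1 and 0.58 for Ier3, against SDs of mouse means of 0.71, 0.96, 0.40, 0.39, 0.54, 0.61 and 1.05. The same values were 0.37 and 0.48 for Jun, 0.36 and 0.41 for Ier2 and 0.17 and 0.16 for Fosb. A median difference and an SD of means are unlike measures, so likeness of tumors within a mouse is not read from them. The SDs include tumor 1b. For Fosl1 the difference within mouse 1 was 2.52, and the largest in any other mouse was 0.34. Single mice had larger differences, such as 2.04 for Fos in mouse 7, 0.87 for Jun in mouse 5 and 0.78 for Ier2 in mouse 4. In mouse 1, tumor b was the highest of the 14 for Ier3 (3.31, against -2.14 to 0.57 in the other 13), Klf6 (2.13, against -0.62 to 0.80), Fos (1.95, against -2.31 to 1.03), Myc (0.42, against -1.93 to -0.60), Junb (0.44, against -1.48 to -0.18) and Fosl1 (-0.97, against -4.02 to -3.10). For Jun (0.81) and Egr1 (0.83) it lay among the others.

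With tumor 1b left out and mouse 1 read at its other tumor, the differences against FVB-WT were 2.36 for Ier3 (adjusted p = 2.02e-06), 1.94 for Jun (adjusted p = 8.6e-07), 1.67 for Klf6 (adjusted p = 1.63e-07), 0.78 for Myc (adjusted p = 0.00202), 0.46 for Fosl1 (adjusted p = 0.00492) and -0.79 for Ier2 (adjusted p = 0.00158). All of the calls in the 3 tumor comparisons passed without it, and Fosl1 against dis-Liv was then called as well (0.39, adjusted p = 0.0104). At the other end stood mouse 5. Its tumors were the lowest of the 14 for Ier3 (-2.14 and -1.56), Klf6 (-0.62 and -0.16), Jun (-0.84 and 0.03) and Fos (-2.31 and -2.06), and also for the stellate cell and fibroblast mean (-0.40 and -0.20, against 0.82 to 3.05 in the other 12), the ERK feedback mean (-1.91 and -1.88, against -1.46 to -0.49) and the heat shock mean (1.52 and 1.72, against 2.10 to 3.38). These values move together in the same tumors, and their part in the members' levels was not tested.

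**Figure D4:**
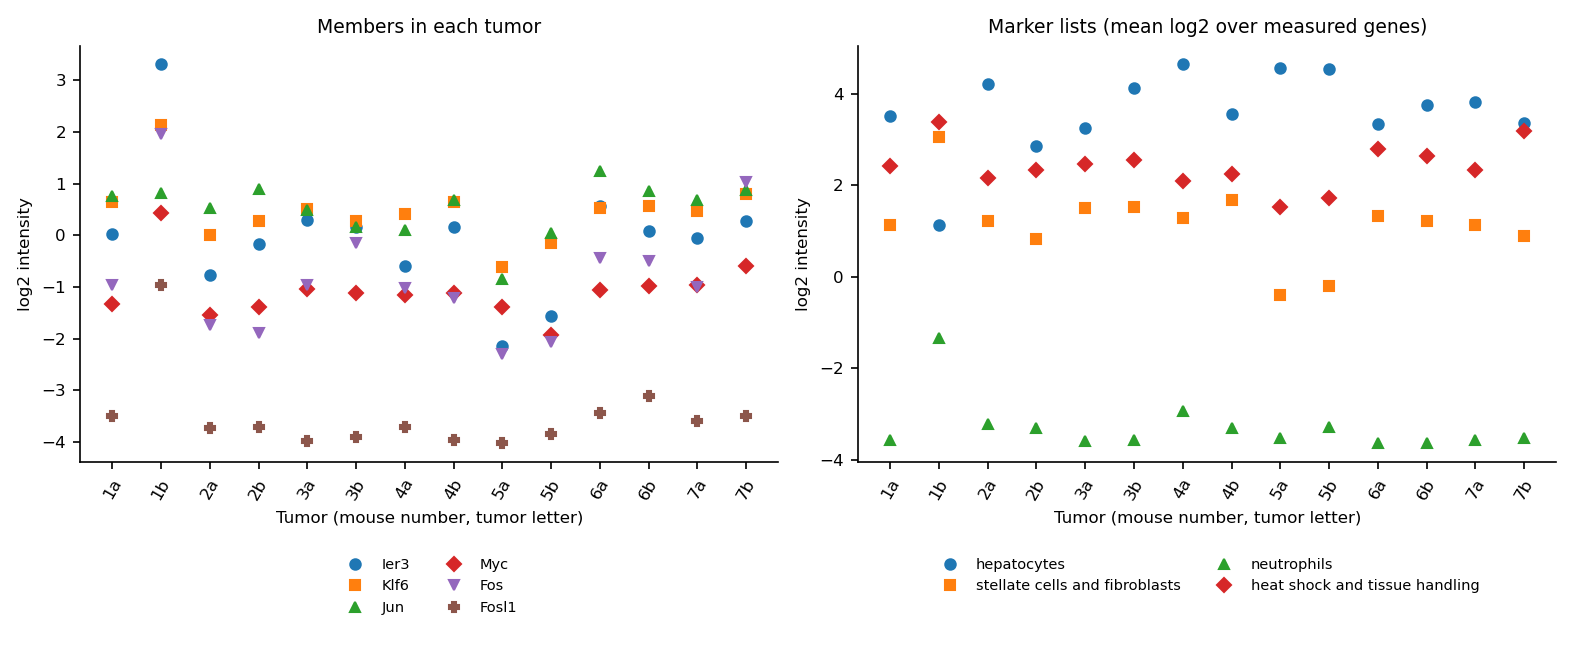
Left, log2 intensity of 6 members in each of the 14 tumors, ordered by mouse number and tumor letter; right, the mean log2 intensity of 4 marker lists in the same tumors. Tumor 1b has the highest Ier3 (3.31) and the lowest hepatocyte mean (1.13), and both tumors of mouse 5 are low in Ier3 (-2.14 and -1.56) and in stellate cell and fibroblast genes (-0.40 and -0.20).

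Within the TRE-met group the 7 livers were far from uniform. Junb was -0.04, -0.07, -0.08 and 0.77 in mice 1, 2, 3 and 5 and -1.72, -1.35 and -1.43 in mice 4, 6 and 7. Ier3 was -2.67, -2.27, -2.44 and -2.38 in the former and -2.89, -3.16 and -2.92 in the latter. For both genes mice 1, 2, 3 and 5 lay above the other 3. The same mice had the higher acute phase means (5.19, 5.14, 4.85 and 5.20, against 2.31, 1.94 and 1.87), the higher neutrophil means (-2.01, -1.95, -1.18 and -1.70, against -3.39, -3.54 and -3.40) and the higher means of the 36 other immediate early genes (-0.87, -0.89, -0.84 and -0.60, against -1.13, -1.07 and -1.07).

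Single genes showed the same livers. S100a8, a neutrophil alarmin, was 0.74, 0.90, 1.89 and 1.16 in mice 1, 2, 3 and 5 and -2.45, -3.38 and -2.59 in mice 4, 6 and 7. Saa1, an acute phase protein, was 6.58, 6.49, 6.50 and 6.58 against 5.20, 3.52 and 3.83. Dbp, a clock output gene that peaks at a fixed time of day, was -1.97, -3.16, -1.75 and -3.17 against 2.08, 1.82 and 2.27, and was between 0.83 and 1.29 in all 7 LAP-tTA livers. In TRE-met mice 1, 2, 3 and 5 Hspa1b was 2.51, 1.69, 2.05 and 1.99, against 2.68, 3.47 and 3.37 in mice 4, 6 and 7. Met itself, at a probe set of the mouse gene that may not read the human transgene, was 2.47, 2.54, 2.46 and 2.49 against 2.12, 1.62 and 1.86, and 1.67 to 2.01 in LAP-tTA livers. In FVB-WT livers, labelled wild type, it was 2.06 to 2.45. Group means were 2.21 in FVB-WT, 2.22 in TRE-met, 2.25 in dis-Liv, 2.20 in ad-Liv, 2.22 in Tum and 1.81 in LAP-tTA. This probe set thus did not separate MET from control tissue.

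Egr1, Fos and Klf6 did not follow this split. Egr1 was highest in mouse 3 (1.21) and mouse 5 (-0.13) and lowest in mouse 2 (-1.32), with mice 6, 7, 4 and 1 at -1.28, -1.04, -0.87 and -0.71. Fos was -1.27 and -1.33 in mice 3 and 5, -2.17 to -1.84 in mice 1, 2 and 6, -2.55 in mouse 4 and -3.17 in mouse 7. Klf6 ran from -2.02 in mouse 4 to -1.36 in mouse 3. Myc ran from -2.57 in mouse 1 to -1.92 in mouse 4, with an SD of 0.20 beside 0.22 for Klf6. The spread of the 7 livers around their median was tested against that of the 7 LAP-tTA livers, and 0 of the 10 members and 0% of probe sets passed in limma, with 2189 probe sets and 2 members, Ier3 and Myc, at an unadjusted p under 0.05. With deviations taken from the group mean, 953 probe sets and 0 members were called, and without TRE-met mouse 1, 2, 3 or 5 the counts were 697, 599, 784 and 677 probe sets and 0 members. The SD of Junb was 0.94 in TRE-met and 0.42 in LAP-tTA livers (adjusted p = 0.9996), that of Ier3 0.33 and 0.13 (adjusted p = 0.859), and that of Myc 0.20 and 0.61 (adjusted p = 0.960).

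**Figure D5:**
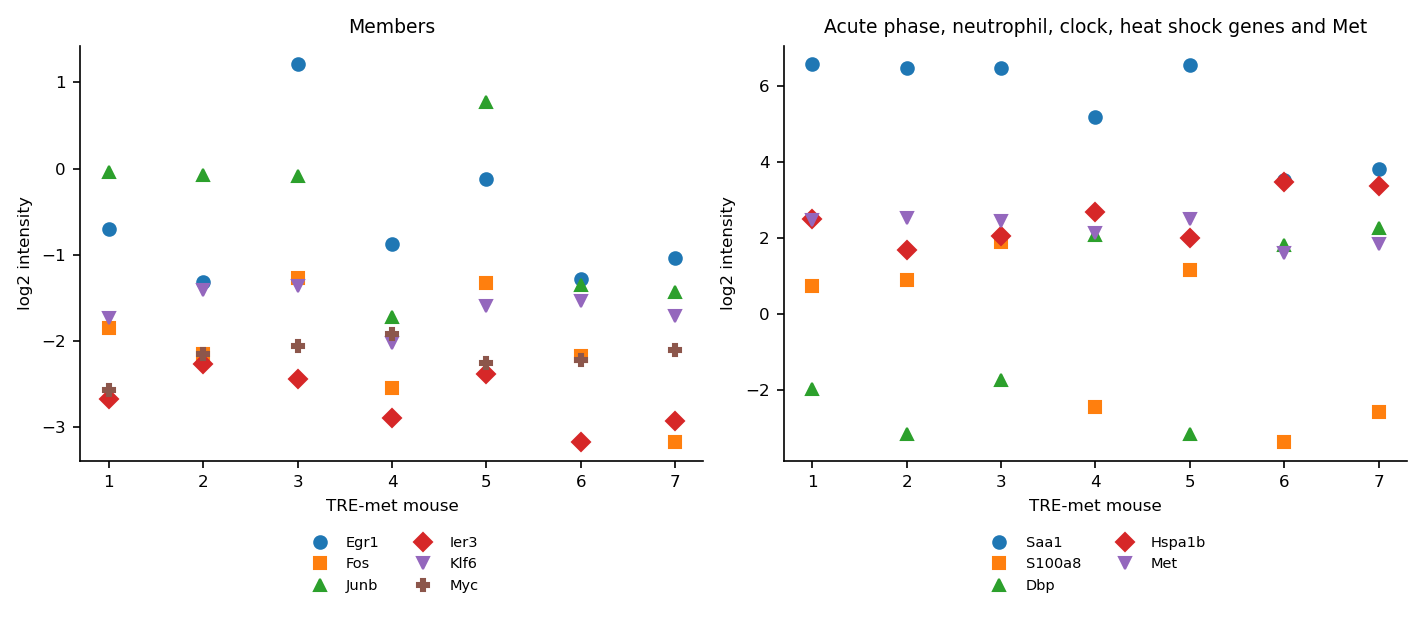
Log2 intensity (vertical axes) in the 7 TRE-met livers (horizontal axes), left for 6 members and right for Saa1, S100a8, Dbp, Hspa1b and Met. Mice 1, 2, 3 and 5 have Junb at -0.08 to 0.77 and S100a8 at 0.74 to 1.89, whereas mice 4, 6 and 7 have Junb at -1.72 to -1.35 and S100a8 at -3.38 to -2.45.

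The members fell into few patterns over the 42 mouse-level samples, described here by Pearson's r, with no test, since these samples share groups and, at 14 weeks, mice. Ier3, Klf6 and Jun were alike (r = 0.92 for Ier3 and Klf6, 0.84 for Jun with either), and so were Egr1 and Fos (r = 0.79), Egr1 and Junb (0.70) and Fos and Junb (0.68). Junb and Myc were unrelated (r = -0.03), and Ier2 and Jun had r = -0.21. Outside the members, the genes most like Egr1 were Nab2, which encodes an EGR1 corepressor (r = 0.85), Pik3ap1 (0.85) and Cd47 (0.83). Those most like Fos were Btg2 (0.78), the ERK feedback gene Spry1 (0.78) and Actn1 (0.78), those most like Junb were Nfkbiz (0.84), Slc38a10 (0.82) and Ddost (0.79), and those most like Myc were Ankrd37 (0.77), Dctn1 (0.75) and Csrp1 (0.74).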

How the data were processed

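The authors hybridized biotin-labelled cRNA from total liver RNA to a custom Affymetrix mouse array and deposited intensity values that they had normalized together by RMA (version not given in the sources used here), scaled linearly so that every sample averages 1. All 49 samples and 43681 probe sets were used, values were log2-transformed without a pseudocount, and dim probe sets were kept. Of the probe sets, 30342 carried 1 gene symbol in the platform annotation and 13339 none, and 6202 symbols were updated through RefSeq synonyms. A gene was read at its brightest probe set. The number of arrays, not a read depth, limits the precision.

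Both tumors of a mouse were averaged. Groups were compared with limma 3.58.1 (lmFit and eBayes, R 4.3.3), fitting only the groups of a comparison. The main fits had no block for the mouse, also where groups came from the same mice. P-values were adjusted by Benjamini-Hochberg across all 43681 probe sets, and calls were made at an adjusted p under 0.05. Shares of all probe sets include dim ones, which were called less often than bright ones in every comparison of group means with calls. Intervals are limma's 95% intervals. Spread was tested on absolute deviations from the group median. On simulated data for TRE-met against LAP-tTA the fit recovered 73% of log2 changes of 0.5 and 98% of changes of 1. dis-Liv, ad-Liv and Tum samples of the same number belong to 1 mouse. After subtracting group means, these samples correlated over probe sets at 0.36 to 0.60 (dis-Liv with ad-Liv), 0.12 to 0.38 (dis-Liv with Tum) and 0.03 to 0.34 (ad-Liv with Tum). Numbers shared by other groups mark different animals.

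The members and gene lists were chosen with earlier results of these data known. Of each list the text names up to 4 called genes with the smallest p, and beside them genes that describe a marker list. Alternatives were a stricter threshold, a filter on dim probe sets, quantile and median scaling, all groups in 1 fit, a replicate block, the second probe set, the methods' test at an unadjusted p of 0.01, each tumor as a sample and each mouse left out.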

Additional observations from a re-analysis of the deposited data

Results flagged for a closer look

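In 6 of the 60 groups of 7 values tested, 1 mouse lay far from the other 6 by Dixon's 95% critical value, a gap that chance gives in about 1 in 20 groups. Fos in LAP-tTA mouse 3 was -1.73, with the others at -3.62 to -3.02. Ier2 in FVB-WT mouse 1 was 2.72, with the others at 1.82 to 2.13. Ier3 in FVB-WT mouse 5 was -3.25, with the others at -2.73 to -2.36. The other 3 were in dim genes, Fosl1 in the mean of both tumors of mouse 1 (-2.23, with the others at -3.94 to -3.27), Fosl1 in LAP-tTA mouse 6 (-4.24, with the others at -3.95 to -3.74) and Fosb in dis-Liv mouse 7 (-3.69, with the others at -4.23 to -4.02).

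The difference of MET from control livers was not the same in the younger and the 14-week set, tested as an interaction in limma. It was more positive in the younger set by 4.15 for Egr1 (adjusted p = 1.15e-06), 2.36 for Junb (adjusted p = 6.42e-05) and 1.98 for Fos (adjusted p = 0.00559).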

How the results depend on the processing

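Numbers of the 10 members called moved by over 1.5 times as follows. At an adjusted p under 0.01, 2 in place of 5 were called in TRE-met against LAP-tTA livers, 1 in place of 2 in dis-Liv and in ad-Liv against FVB-WT, and 5 in place of 9 in tumors against ad-Liv. With all groups in 1 fit the counts were 2, 1 and 1 in the first 3 of these, and 2 in place of 1 in dis-Liv against TRE-met livers. In that last comparison 3 were called with sample medians set equal and 0 at the next-brightest probe set. Ier2 turned sign at its dim second probe set, to 0.16 in tumors against dis-Liv, 0.13 in tumors against ad-Liv and -0.20 in dis-Liv against TRE-met livers. The cause of these changes was not tested. The calls of Egr1 and Junb in TRE-met livers, of Egr1 in dis-Liv and ad-Liv, and of Jun, Klf6, Ier3 and Myc in the 3 tumor comparisons held under every alternative tried.

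With the replicate block, 3 members were called in TRE-met against LAP-tTA livers, without Ier3 (adjusted p = 0.0703) and Klf6 (0.0925), and 3 in dis-Liv against TRE-met livers, with Junb (0.0434) and Ier3 (0.0374) added. These groups share only numbers, not mice. Where numbers are mice, the block added Fosl1 in tumors against dis-Liv and changed no other call.

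With 1 mouse left out, the number of members called ranged from 2 to 5 in TRE-met against LAP-tTA, 1 to 3 in dis-Liv against FVB-WT and 1 to 4 in dis-Liv against TRE-met livers. Calls gained this way were Fosl1 in TRE-met livers without LAP-tTA mouse 6 (adjusted p = 0.0246), in FVB-WT against LAP-tTA without LAP-tTA mouse 6 (0.0389) or FVB-WT mouse 7 (0.0499) and in tumors against dis-Liv without mouse 1 (0.0316), and, in dis-Liv against TRE-met livers, Jun without TRE-met mouse 5 (0.0263) or dis-Liv mouse 7 (0.0485), Ier3 without TRE-met mouse 2 (0.0374) or dis-Liv mouse 7 (0.0200) and Klf6 without dis-Liv mouse 2 (0.0429) or 7 (0.0427). At an adjusted p under 0.01 the probe sets called fell from 2998 to 1592 in TRE-met against LAP-tTA, from 2212 to 874 in dis-Liv and from 3058 to 1113 in ad-Liv against FVB-WT, from 12752 to 8098, 11786 to 7166 and 15827 to 8191 in tumors against FVB-WT, dis-Liv and ad-Liv, from 4117 to 1977 in FVB-WT against LAP-tTA, from 6231 to 2434 in dis-Liv against TRE-met and from 3376 to 1886 in the test between age sets. The methods' test called 3512 in dis-Liv against FVB-WT, and the replicate block 1619 in ad-Liv against FVB-WT. Setting medians equal left 911 of 3036 calls higher in ad-Liv against FVB-WT, in place of 1680 of 3058, and moved the share of higher calls among all probe sets from 35.2% to 65.3% in tumors against ad-Liv (46.0% by quantile scaling), from 55.6% to 72.9% in FVB-WT against LAP-tTA and from 41.9% to 72.3% in dis-Liv against TRE-met. Leaving out tumor 1b was chosen after seeing the data.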
